A study of Mus musculus with 2 samples.

Results

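Spp1, Gpnmb, Lgals3, Cst7, Clec7a, Cd9, Cd63 and Cd68 are genes that microglia and macrophages use more in injured, degenerating or inflamed nervous tissue. They were chosen by name, with earlier results of these same libraries known, so their levels are given here as a description. Of the 8 genes, 7 were measured among the 31053 features, and Clec7a, which encodes the beta-glucan receptor dectin-1, was not analysed here. The cells came from retinas of C57BL/6j mouse pups at postnatal day 17, sorted by FACS for CD11b and F4/80, both surface proteins of myeloid cells. One library was made from pooled retinas of pups with oxygen-induced retinopathy (OIR), in which newborn mice are raised in high oxygen and then returned to room air, so that abnormal vessels grow. The other was made from pooled retinas of controls kept in room air (RA), so each condition has 1 library. Each library was a 10x Chromium 3′ count of unique molecular identifiers (UMIs, which mark single captured transcripts) per gene and cell.

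Resting microglia carry a homeostatic program of genes such as P2ry12 and Tmem119. In disease many of them turn on a second program, often called the disease-associated microglia (DAM) program, rich in genes for lysosomes, lipid handling and phagocytosis, and the genes described here are among its best known members. Spp1 encodes osteopontin, a secreted ligand of integrins and of CD44. Gpnmb encodes a transmembrane glycoprotein of lysosomes and phagocytes, and Lgals3 encodes galectin-3, a sugar-binding protein that marks damaged lysosomes. Cst7 encodes cystatin F, an inhibitor of lysosomal cathepsins. Cd9 and Cd63 are tetraspanins, of which Cd63 sits in late endosomes and lysosomes, and Cd68 is a heavily glycosylated protein of the lysosomal membrane.

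The RA library held 1449 cells with 12810892 UMIs in all and a median of 8607 per cell, and the OIR library 1259 cells with 9835402 UMIs and a median of 5254. No cell barcode was shared between the libraries. After filtering, 2474 cells were clustered with the genes described here left out, and 1897 of them (969 RA, 928 OIR) lay in 13 myeloid clusters. Classes were named from marker lists as homeostatic microglia-like cells (710 RA, 342 OIR), dividing-like cells (14 RA, 113 OIR), macrophage-like cells (91 RA, 140 OIR) and monocyte-like cells (52 RA, 92 OIR). The largest homeostatic microglia-like clusters were led by early response and stress genes (Egr3, Tnf and Gadd45b in one, Ddit3, Dusp8 and Dnajb1 in the other) and were named by the level of the whole marker list. Clusters without a marker name are called by their leading gene, as Cryba4-led (65 RA, 130 OIR), Gclm-led (7 RA, 61 OIR) and Ifit2-led cells (8 RA, 6 OIR). A level below is the UMIs of a gene summed over the cells of a class, as counts per 1000000 UMIs of that class (CPM), and a ratio is OIR over RA on the log2 scale. The 95% intervals in parentheses are exact (Poisson for levels, binomial for shares, conditional for ratios) and cover counting error only, so no difference between the conditions was tested.

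The libraries and classes also differed in other genes and in depth. Lyz2, a lysozyme of myeloid cells, was at 34.8 CPM in RA against 5626 CPM in OIR monocyte-like cells, at 22.5 against 2172 CPM in macrophage-like cells, and at 0.136 CPM (1 UMI) against 574 CPM in homeostatic microglia-like cells. Malat1, a nuclear RNA, was at 18252 CPM in RA and 6331 CPM in OIR myeloid cells. It was nearly absent from Gclm-led cells of both libraries (25.2 and 21.7 CPM). In Cryba4-led cells it was at 2230 CPM in RA and 97.6 CPM in OIR. Homeostatic microglia-like cells held it at 19195 CPM in RA and 7583 CPM in OIR. Cryba4-led, Gclm-led and part of the dividing-like and macrophage-like cells were shallow, with median UMIs of 2426 in OIR Gclm-led and 2428.5 in OIR Cryba4-led cells. Monocyte-like cells held the monocyte list at 7256 CPM in RA and 4963 CPM in OIR, and the homeostatic microglia list at 4590 and 7104 CPM. The part of these differences in the results below was not tested.

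The 250 bases before and the 30 bases from the annotated start of the 4 rarer genes are shown from RefSeq (GRCm38.p6), since the co-detection described below turns on them. They were searched on both strands for CACGTG, the E-box bound by the MiT factors of lysosomal genes, for TGANTCA, the site of AP-1, and for GAGGAA, a core of the PU.1 site of myeloid cells. Capitals mark a match.
Spp1 (chr5:104434861-104435140, + strand): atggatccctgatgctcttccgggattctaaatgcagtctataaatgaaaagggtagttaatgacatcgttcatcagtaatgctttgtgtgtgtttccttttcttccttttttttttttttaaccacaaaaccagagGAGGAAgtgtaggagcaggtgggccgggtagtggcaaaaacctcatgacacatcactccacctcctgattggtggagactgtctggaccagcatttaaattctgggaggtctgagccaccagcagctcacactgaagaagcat
Gpnmb (chr6:49036268-49036547, + strand): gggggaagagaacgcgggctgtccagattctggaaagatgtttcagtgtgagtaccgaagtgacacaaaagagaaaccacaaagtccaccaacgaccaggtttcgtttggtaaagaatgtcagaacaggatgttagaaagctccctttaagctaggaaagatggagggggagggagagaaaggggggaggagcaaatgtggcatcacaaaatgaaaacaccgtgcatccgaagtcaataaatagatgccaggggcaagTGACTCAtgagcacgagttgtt
Lgals3 (chr14:47373610-47373889, + strand): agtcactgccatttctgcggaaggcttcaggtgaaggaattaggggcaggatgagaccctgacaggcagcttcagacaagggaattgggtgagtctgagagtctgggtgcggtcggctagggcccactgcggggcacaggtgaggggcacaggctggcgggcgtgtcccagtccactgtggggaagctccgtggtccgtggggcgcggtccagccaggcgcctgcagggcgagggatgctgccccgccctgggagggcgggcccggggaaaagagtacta
Cst7 (chr2:150570165-150570444, + strand): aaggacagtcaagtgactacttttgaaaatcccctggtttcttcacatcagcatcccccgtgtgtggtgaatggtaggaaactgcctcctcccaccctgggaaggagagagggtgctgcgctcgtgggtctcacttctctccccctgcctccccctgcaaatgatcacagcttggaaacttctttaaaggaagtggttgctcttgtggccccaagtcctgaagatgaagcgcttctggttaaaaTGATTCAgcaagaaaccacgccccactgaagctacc
The Spp1 window shown held GAGGAA at position -113 from the start, the Gpnmb window TGANTCA at 8, the Cst7 window TGANTCA at -6 and the Lgals3 window none of the 3 motifs. A second Spp1 window, not shown, held none of them either. All 8 genes matched RefSeq with 10 such windows, of which 3 held TGANTCA, 5 held GAGGAA and 0 held CACGTG. The 2 windows of Clec7a overlap, and their GAGGAA, at -96 and -90, is the same site counted in both. Among all 32817 promoter windows of this length, 7.47% held TGANTCA, 26% held GAGGAA and 6.79% held CACGTG. A match is a description of the letters and not a bound site.

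Spp1, which encodes the secreted ligand osteopontin, had the highest ratio of the members over all myeloid cells (5.03, 4.83 to 5.23). In homeostatic microglia-like cells Spp1 was at 3.93 CPM in RA (29 UMIs) and at 158 CPM in OIR (478 UMIs), a log2 ratio of 5.33 (4.79 to 5.92). In macrophage-like cells it was at 112 CPM in RA and 404 CPM in OIR (1.84, 1.57 to 2.12). In monocyte-like cells it was at 0 CPM in RA, where 0 UMIs allow up to 4.74 CPM at 3 UMIs of the total, and at 2659 CPM in OIR, at least 561-fold higher. Spp1 was thus higher in the OIR library in every one of these classes, with the least difference in dividing-like cells, where it was at 151 CPM in RA and 259 CPM in OIR (0.78, 0.18 to 1.45). The Gclm-led cells went from 75.7 CPM (3 UMIs) in RA to 3198 CPM in OIR, and the Cryba4-led cells from 13.7 (3 UMIs) to 1084 CPM. Among these classes of OIR, the order of the Spp1 level was Gclm-led, monocyte-like, Cryba4-led, macrophage-like, dividing-like and homeostatic microglia-like, with no overlap between the counting intervals of neighbours. The place of the Cryba4-led cells held only in some clusterings, since in 5 alternatives they lay below homeostatic microglia-like cells (-2.0 to -0.18). Rod-like cells, photoreceptors that should lack the transcript, were taken as a gauge of free RNA. They held 0 UMIs in RA and 9 UMIs in 2 cells (14.4 CPM) in OIR, and whether these came from free RNA was not tested.

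**Figure D1:**
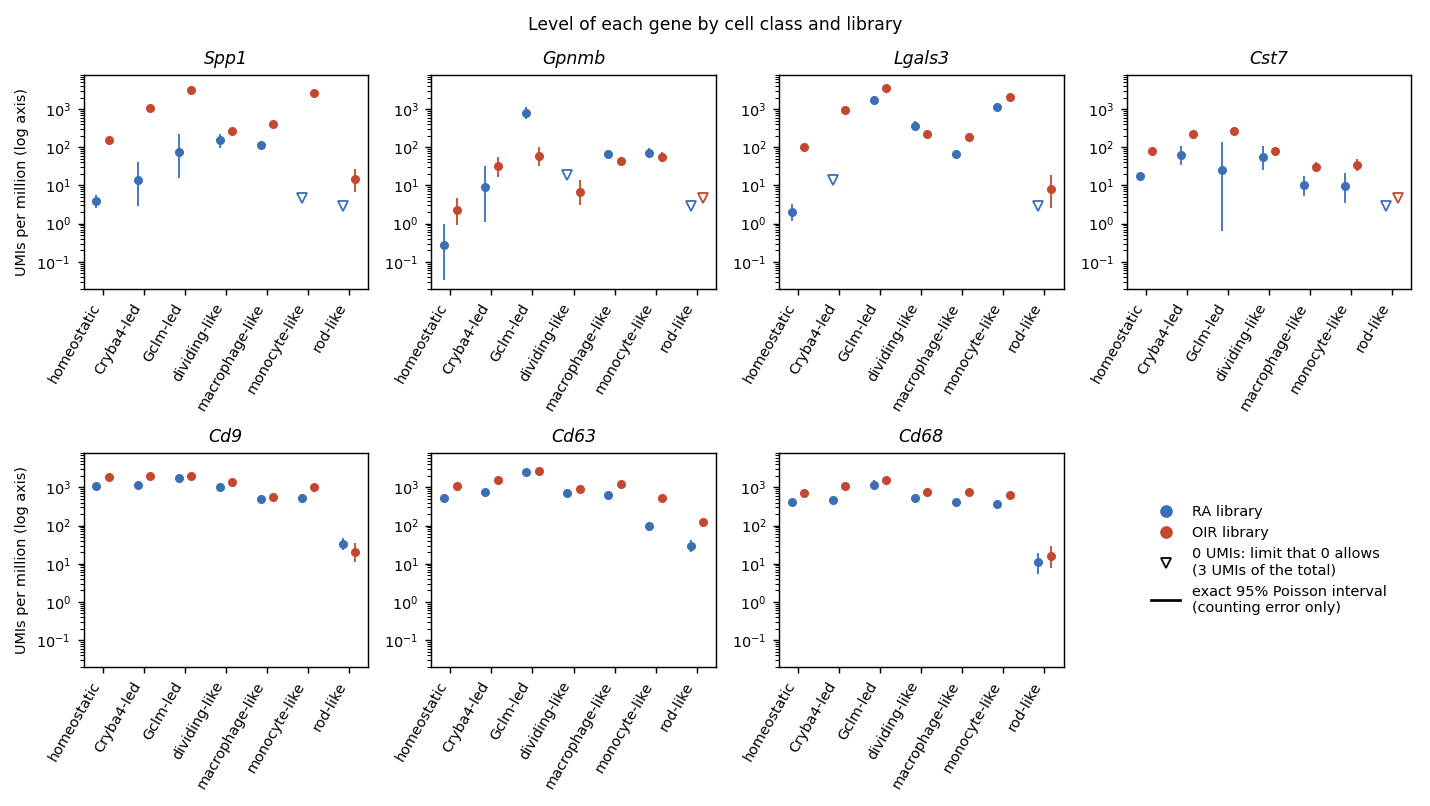
Level of each of the 7 measured genes (CPM, log axis) by class in the RA (blue) and OIR (red) libraries, with exact 95% Poisson intervals and open triangles at the limit that 0 UMIs allow. Spp1 and Lgals3 lie far higher in OIR homeostatic microglia-like cells (158 and 101 CPM) than in RA (3.93 and 2.03 CPM), while Cd9 and Cd68 lie at 367 CPM or more in all myeloid classes shown, and Cd63 is lowest in RA monocyte-like cells (99.5 CPM).

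These Spp1 counts were held by few cells. A single OIR monocyte-like cell carried 2112 Spp1 UMIs, which was 13.9% of its own 15193 UMIs, 87.6% of the class and 37.9% of all 5566 Spp1 UMIs of OIR myeloid cells. That cell also held 18 UMIs of Gpnmb, 151 of Lgals3 and 74 of Cd9, with 27 UMIs of the monocyte, 25 of the macrophage and 37 of the homeostatic microglia list. Without it, Spp1 in OIR monocyte-like cells was at 334 CPM, at least 2 to the power of 6.14 higher than in RA. The class then stood below the Cryba4-led and the macrophage-like cells in the order. Macrophage-like cells were at 404 CPM, or at 283 CPM without their own richest cell. The 10 highest cells held 61.2% of the Spp1 UMIs in OIR and 88.1% in RA. In RA, 1 macrophage-like cell held 117 of the 219 Spp1 UMIs, along with 615 UMIs of the homeostatic microglia list and 219 of the macrophage list. Without the richest cell of each library the macrophage-like ratio was 4.19 (3.52 to 4.96) in place of 1.84, the dividing-like ratio was 3.69 (1.82 to 6.74) in place of 0.78, and the homeostatic microglia-like ratio was 5.15 (4.55 to 5.81). Both of the first 2 RA levels rested on 1 cell, with 117 of 135 UMIs and 22 of 24 UMIs.

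**Figure D2:**
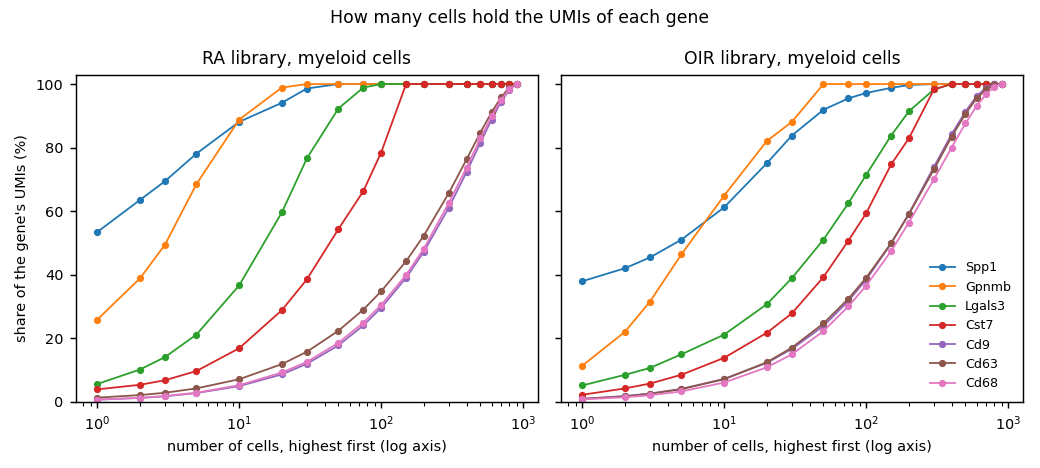
Share of a gene's UMIs (%) held by the cells with most of it, counted from the highest cell on (log axis), for RA (left) and OIR (right) myeloid cells. The 10 highest cells hold 61.2% of Spp1 and 64.9% of Gpnmb UMIs in OIR but 7.15% of Cd9 UMIs.

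Cells with an Spp1 UMI were more frequent in OIR at equal depth. With 2000 UMIs drawn at random from every cell that had as many, 16 of 930 RA myeloid cells (1.72%, 0.986% to 2.78%) and 114 of 800 OIR myeloid cells (14.2%, 11.9% to 16.9%) held an Spp1 UMI. The shares before thinning were 3.41% and 23.3%. By class, the share at equal depth was 0.851% in RA and 7.01% in OIR for homeostatic microglia-like cells. For macrophage-like cells it was 5.81% and 17.9%, and for monocyte-like cells 0% (0 of 51, which allows up to 5.88%) and 13.8%. In OIR it was 26.2% of Gclm-led, 15.2% of Cryba4-led and 14.3% of dividing-like cells. Thus most OIR cells of each of these classes held no Spp1 UMI at this depth. Among rod-like cells it was found in 0 of 126 from RA and 1 of 74 from OIR (1.35%), with median depths of 1765 and 1260.5 UMIs before thinning against 10191 and 7121 for myeloid cells. These shares come from 1 draw. In it 6 of 705 RA homeostatic microglia-like cells held Spp1. Those that also held Cd9 numbered 5 in this draw and 3.30 on average over 10 draws.

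Gpnmb, unlike Spp1, was lower in OIR in some classes. In macrophage-like cells Gpnmb was at 66.6 CPM in RA (80 UMIs) and 44.9 CPM in OIR (70 UMIs), a log2 ratio of -0.57 (-1.05 to -0.09), and of -0.55 (-1.11 to 0.00) without the richest cell of each library. It was 0.25 (-0.16 to 0.67) without the filter on gene number. In Gclm-led cells it was at 808 CPM in RA and 60.7 CPM in OIR (-3.74), where the RA level came from 32 UMIs in 2 of 7 cells. The macrophage list was at 2171 CPM in these RA cells and at 247 CPM in OIR Gclm-led cells. The part of this in the Gpnmb ratio was not tested. In monocyte-like cells Gpnmb was at 72.7 CPM in RA, where all 46 UMIs lay in 1 cell. In OIR it was at 56.3 CPM there, where 51 UMIs lay in 4 cells (-0.37, -0.97 to 0.24). Without the richest cell of each library RA was at 0 and OIR at least 7.31-fold higher, and without the filter on gene number the ratio was 0.47 (-0.09 to 1.05). In homeostatic microglia-like cells it was scarce in both libraries, with 2 UMIs in RA (0.271 CPM) and 7 UMIs in OIR (2.31 CPM), a ratio of 3.09 (0.70 to 6.40). Over all myeloid cells the levels were 17.7 CPM in RA and 21.5 CPM in OIR (0.27, -0.04 to 0.59), while 2.27% of RA and 5.39% of OIR cells held a UMI before thinning. At equal depth these shares were 1.08% (0.517% to 1.97%) and 2.12% (1.24% to 3.38%), with overlapping intervals. Macrophage-like and monocyte-like cells held 44.9% and 25.8% of the Gpnmb UMIs in RA and 41.7% and 30.4% in OIR, and rod-like cells held none in either library (0 of 126 and 0 of 74 cells at equal depth, which allow up to 2.38% and 4.05%).

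Lgals3 was both a monocyte transcript in RA and a broadly found one in OIR. In monocyte-like cells it was at 1139 CPM in RA and 2034 CPM in OIR (0.84, 0.71 to 0.96), and 78.4% of RA and 89.7% of OIR cells of this class held a UMI at equal depth. In homeostatic microglia-like cells it was at 2.03 CPM in RA (15 UMIs) and 101 CPM in OIR (306 UMIs), with a ratio of 5.64 (4.89 to 6.49) and shares of 0.142% and 8.84%. This RA share was 1 of 705 cells in 1 draw. That draw had 1 such cell with both Lgals3 and Cd9, against 2.40 on average over 10 draws. Macrophage-like cells lay between, at 64.9 CPM in RA and 180 CPM in OIR (1.47, 1.10 to 1.85). Gclm-led cells were at 1692 CPM in RA (67 UMIs, 38 of them in 1 cell) and 3501 CPM in OIR. Without the richest cell of each library they were at 920 CPM in RA, below the 1089 CPM of monocyte-like cells, and at 3323 CPM in OIR, and 41 of 42 OIR cells of this cluster held a UMI at equal depth. Cryba4-led cells were at 0 CPM (limit 13.7 CPM) in RA and 947 CPM in OIR. In dividing-like cells alone among these classes Lgals3 was lower in OIR, at 370 CPM in RA and 220 CPM in OIR (-0.75, -1.17 to -0.32). Of the 59 RA UMIs there, 54 lay in 1 cell that also held 291 UMIs of the monocyte list, and without the richest cell of each library the levels were 37.2 and 188 CPM (2.34, 1.09 to 3.97). The ratio was also above 0 in 6 other ways of clustering or filtering, from 0.05 to 2.90. Monocyte-like cells held 73.8% of all RA Lgals3 UMIs and 40.8% of those in OIR. Rod-like cells held 0 UMIs in RA and 5 UMIs (7.99 CPM) in OIR.

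Cst7 was the member of the 4 rarer ones that spread most evenly over cells. In homeostatic microglia-like cells it was at 18.0 CPM in RA (133 UMIs in 102 cells) and 81.6 CPM in OIR (247 UMIs in 121 cells), a ratio of 2.18 (1.87 to 2.49) with no cell holding more than 3.64% of the UMIs. At equal depth 3.12% of RA cells (1.97% to 4.69%) and 13.1% of OIR cells (9.65% to 17.3%) of this class held a UMI. In macrophage-like cells it was at 9.99 CPM in RA and 30.1 CPM in OIR (1.59, 0.66 to 2.64), and in monocyte-like cells at 9.48 and 34.2 CPM (1.85, 0.57 to 3.40). Both of these classes thus had lower Cst7 levels than homeostatic microglia-like cells of OIR, with ratios over them of -1.44 (-1.92 to -0.98) and -1.25 (-1.84 to -0.71). Within OIR the level was 269 CPM in Gclm-led, 222 CPM in Cryba4-led and 82.1 CPM in dividing-like cells. The intervals of the Gclm-led (206 to 344 CPM) and Cryba4-led cells (177 to 274 CPM) overlapped, as did those of the dividing-like and homeostatic microglia-like cells. No Cst7 UMI was found in rod-like cells of either library.

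The tetraspanins Cd9 and Cd63 and the lysosomal protein Cd68 were found in most myeloid cells of both libraries (86.1% to 92.7% before thinning), with smaller differences. Cd9 was at 1107 CPM in RA and 1910 CPM in OIR homeostatic microglia-like cells (0.79, 0.74 to 0.84). It was at 503 and 552 CPM in macrophage-like cells (0.13, -0.02 to 0.29) and at 512 and 1024 CPM in monocyte-like cells (1.0, 0.82 to 1.19). Cd9 was lower in macrophage-like than in homeostatic microglia-like cells in both libraries, by ratios of -1.14 (-1.26 to -1.02) in RA and -1.79 (-1.90 to -1.69) in OIR. Cd63 was at 535 CPM in RA and 1115 CPM in OIR homeostatic microglia-like cells (1.06, 0.99 to 1.13), and at 634 and 1200 CPM in macrophage-like cells (0.92, 0.80 to 1.05). Monocyte-like cells held Cd63 at 99.5 CPM in RA and 511 CPM in OIR (2.36, 1.98 to 2.76), with 9.80% and 28.7% of cells holding a UMI at equal depth, and in both libraries this was the lowest Cd63 level of any myeloid class. Cd68 was at 419 CPM in RA and 701 CPM in OIR homeostatic microglia-like cells (0.74, 0.66 to 0.82), at 415 and 767 CPM in macrophage-like cells (0.88, 0.73 to 1.04) and at 367 and 626 CPM in monocyte-like cells (0.77, 0.55 to 1.0). For these 3 genes no cell of a library held more than 1.24% of the UMIs. Cd63 was also higher in OIR outside the myeloid cells, at 29.3 CPM in RA and 126 CPM in OIR rod-like cells (2.11, 1.48 to 2.76) and at 292 and 822 CPM in endothelial- and pericyte-like cells (1.5, 1.02 to 1.99).

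**Figure D3:**
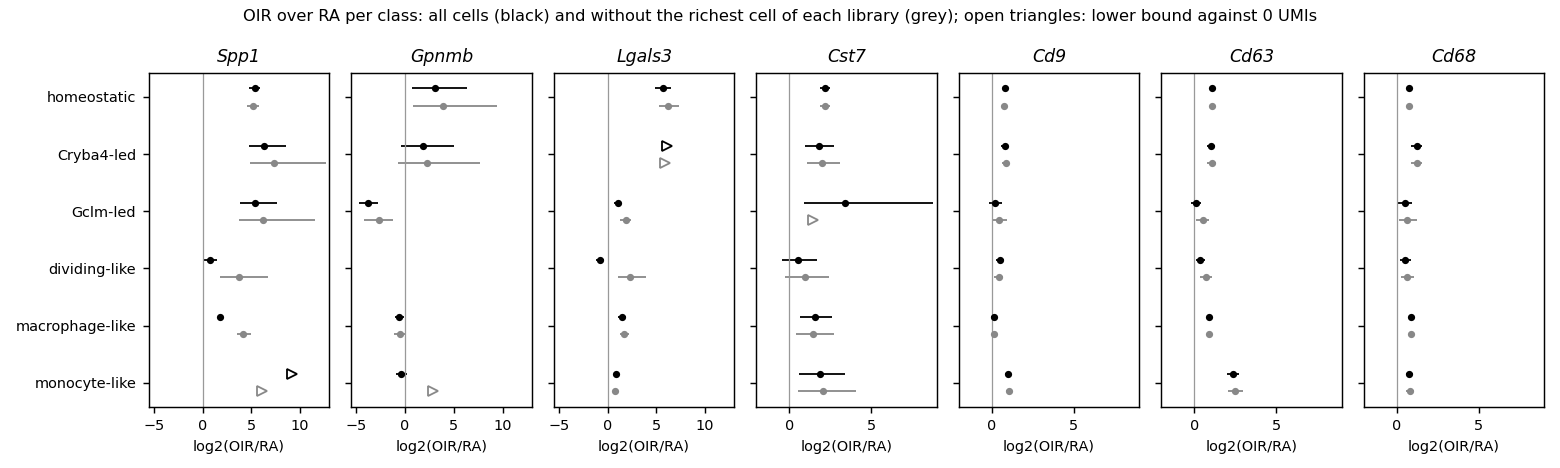
Log2 ratio of OIR over RA for each gene and class with exact 95% conditional intervals, from all cells (black) and without the cell richest in that gene in each library (grey), with open triangles for lower bounds against 0 UMIs. The Spp1 ratio of macrophage-like cells lies at 1.84 with and 4.19 without the richest cells and that of Lgals3 in dividing-like cells at -0.75 and 2.34. The Cd9, Cd63 and Cd68 ratios move less than these 2, as for Cd63 from 0.10 to 0.51 in Gclm-led and from 0.37 to 0.71 in dividing-like cells.

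Counted against all genes, the members stood out to different degrees by class. Genes at 50 CPM or more in at least 1 library were compared, and a difference of 2-fold or more was counted. In homeostatic microglia-like cells Spp1, Lgals3, Cst7 and Cd63, 4 of the 6 members compared, were higher in OIR and 0 lower, where 3.90% of 3103 genes were higher and 5.25% lower. In macrophage-like cells 2 of 6 (Spp1 and Lgals3) were higher and 0 lower, where 7.88% of genes were higher and 6.25% lower. In monocyte-like cells 3 of 6 (Spp1, Cd9 and Cd63) were higher and 0 lower, where 6.55% of genes were higher and 7.61% lower. In dividing-like cells 0 of 6 were higher or lower, where 11.5% of genes were higher and 12.3% lower. That count leaned on single RA cells. Without the richest cell of each library the ratios there were 3.69 for Spp1 and 2.34 for Lgals3, both past 2-fold. In Gclm-led cells Spp1, Lgals3 and Cst7 of 7 members were higher and Gpnmb lower, where 17.6% of genes were higher and 24.5% lower. In Cryba4-led cells 5 of 6 were higher, where 21.8% of genes were higher and 11.1% lower. Over all myeloid cells it was 4 of 6, where 7.95% of genes were higher and 6.34% lower. Since these genes were chosen with such differences known, the counts describe them and support nothing further.

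Over all myeloid cells, a level depends on the share that each class took as well as on the level within it. Spp1 was at 21.8 CPM in RA and 711 CPM in OIR, Lgals3 at 97.4 and 577 CPM, Cst7 at 20.7 and 83.2 CPM and Cd63 at 562 and 1155 CPM. When the OIR level of each class was weighted by the share of UMIs of that class in RA, the difference from RA was 57.0% of the full difference for Spp1 and 43.3% for Lgals3. It was 92.7% for Cst7, 84.6% for Cd68, 95.2% for Cd63 and 139% for Cd9. For Gpnmb the small difference of 3.72 CPM became -5.70 CPM. The shares of classes come from 1 sorted library per condition and were not tested.

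Within the OIR library, where both sides of a comparison come from 1 preparation, Gclm-led and Cryba4-led cells carried more of most members than homeostatic microglia-like cells did. In Gclm-led cells the ratio over homeostatic microglia-like cells was 4.34 (4.17 to 4.51) for Spp1, 5.11 (4.92 to 5.31) for Lgals3, 1.72 (1.29 to 2.13) for Cst7, 1.28 (1.16 to 1.41) for Cd63 and 1.17 (1.01 to 1.33) for Cd68. Cd9 was at 2019 and 1910 CPM there (0.08, -0.06 to 0.22). Thus 6 of 7 members, Gpnmb among them (4.71, 3.31 to 6.26), were higher by 2-fold or more and 0 lower, where 11.5% of genes were higher and 36.3% lower. The homeostatic marker list was at 7310 CPM in Gclm-led and 21588 CPM in homeostatic microglia-like cells of OIR, and hemoglobin genes were at 386 and 1.98 CPM. In Cryba4-led cells the ratios were 2.78 for Spp1, 3.23 for Lgals3 and 1.44 for Cst7, with 3 of 6 past 2-fold where 5.97% of genes were higher and 21.7% lower. In dividing-like cells Lgals3 alone of 6 members was past 2-fold (1.12, 0.87 to 1.36), where 11.9% of genes were higher and 2.50% lower. The Spp1 excess of Cryba4-led cells turned negative in 5 other ways of clustering or filtering, with values from -2.0 to -0.18, and that of Lgals3 in 2 of these, at -0.22 and -0.11. In those 5 the cluster matched to it by shared cells kept 60 to 108 of its 130 OIR cells, and these held 18 to 88 of its 411 Spp1 UMIs.

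Monocyte-like and macrophage-like cells of OIR were each set against homeostatic microglia-like cells. Over homeostatic microglia-like cells, 3 of 7 members, Spp1 (4.07), Gpnmb (4.61) and Lgals3 (4.33), were higher by 2-fold or more in monocyte-like cells and Cst7 and Cd63 lower (-1.25 and -1.13), where 13.8% of genes were higher and 6.77% lower. Without the cell richest in Spp1 on each side, the Spp1 levels were 334 and 115 CPM. Of 6 members in macrophage-like cells, Spp1 was higher (1.35) and Cst7 and Cd9 lower (-1.44 and -1.79), where 8.20% of genes were higher and 5.14% lower. Gpnmb, at 44.9 CPM there and so under the 50 CPM limit, was at 4.28 (3.16 to 5.64). Spp1 and Lgals3 were higher in monocyte-like than in macrophage-like cells (2.72, 2.59 to 2.85, and 3.5, 3.32 to 3.68), as was Cd9 (0.89, 0.76 to 1.03), and Cd63 was lower (-1.23, -1.38 to -1.09). The Spp1 part of this comparison rested on the 1 cell described above, since without the richest cells the levels were 334 CPM in monocyte-like and 283 CPM in macrophage-like cells. For Gpnmb the ratio was 0.33 (-0.22 to 0.87) and for Cst7 0.18 (-0.52 to 0.87), so neither differed beyond counting error. In RA, Lgals3 was higher (4.13, 3.79 to 4.49) and Cd63 lower (-2.67, -3.06 to -2.30) in monocyte-like cells too, and Spp1, at 0 against 112 CPM, was the other way round. Of the 135 Spp1 UMIs behind the 112 CPM, 117 lay in 1 cell, and without it the level was 15.5 CPM (18 UMIs).

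Over all OIR myeloid cells, most pairs of members were found in the same cell more often than the product of their shares gives. At 2000 UMIs a cell, and over 10 random draws, 15 to 18 of the 18 or 19 pairs with at least 5 expected cells were seen together more often than the product of their shares in OIR, and 8 to 11 of 12 to 15 pairs in RA. Any excess was counted here. In 1 draw, 2 of 19 OIR pairs and 0 of 15 RA pairs were above 1.5 times the expected number, and 0 of 19 OIR pairs were within clusters. Pairs of other genes were not counted, so these counts do not set the members apart. Spp1 and Lgals3 were found together in 55.7 OIR cells on average where 32.1 were expected (median ratio 1.76, range 1.54 to 1.91 over draws). When the expected number was summed within clusters, which takes out what the clusters share, the ratio was 1.30 (1.19 to 1.36). Lgals3 and Cst7 were at 1.46 (1.27 to 1.60) over all OIR myeloid cells and 1.21 (1.05 to 1.30) within clusters. Spp1 and Gpnmb were together in 7.60 cells where 2.34 were expected (3.49, 2.24 to 3.74), and at 2.55 (1.49 to 3.02) within clusters. Pairs of Cd9, Cd63 and Cd68, each found in most cells, were at 1.02 to 1.05 in both libraries. A ratio with a gene found in most cells cannot rise much above 1, so these pairs are not set against the rarer ones. The range over draws covers the random thinning of the same cells and not the spread between mice.

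**Figure D4:**
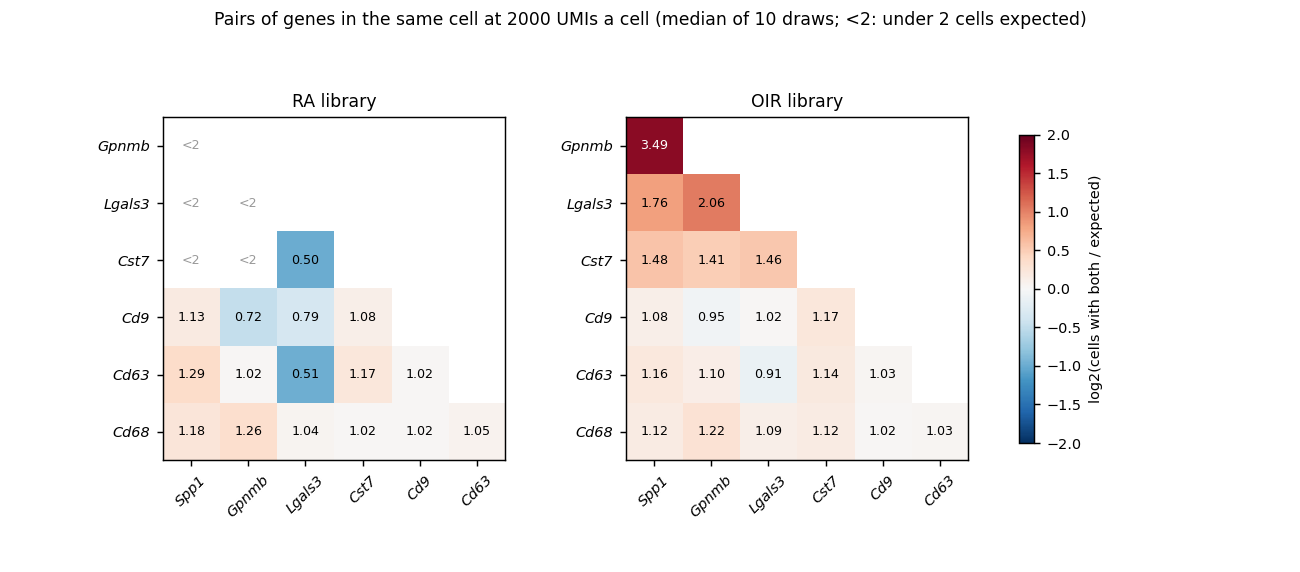
Number of myeloid cells with both genes over the number expected from their shares, for the 21 pairs in RA (left) and OIR (right), each cell thinned to 2000 UMIs (median of 10 draws, colour on a log2 scale). In OIR Spp1 with Gpnmb is at 3.49 and Spp1 with Lgals3 at 1.76, and in RA Lgals3 with Cd63 is at 0.51.

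By class the numbers were small, and the classes were not tested against each other. In OIR homeostatic microglia-like cells Spp1 and Lgals3 were together in 6.10 cells where 1.94 were expected (3.56, range 0.95 to 4.37), and in Cryba4-led cells in 7.90 where 4.38 were (1.85, 1.56 to 2.12). In monocyte-like and Gclm-led cells nearly all cells held Lgals3, so a ratio for this pair cannot rise much above 1 and is not read. Spp1 and Gpnmb in OIR monocyte-like cells were together in 2.80 cells where 0.367 were expected (7.58, 5.80 to 10.88). Fewer than 5 cells were expected in each of these counts by class. Among OIR pairs with at least 5 expected cells in 1 draw, 3 of 9 in macrophage-like and 6 of 15 in Gclm-led cells were above expectation. It was 5 of 9 in monocyte-like, 8 of 12 in dividing-like, 10 of 12 in homeostatic microglia-like and 12 of 13 in Cryba4-led cells. Over 10 draws these numbers ran from 2 to 7 in macrophage-like, 3 to 9 in Gclm-led and 5 to 8 in monocyte-like cells. They ran from 6 to 11 in dividing-like, 9 to 12 in homeostatic microglia-like and 10 to 13 in Cryba4-led cells. Many of these ranges overlap, so the counts do not order the classes. Most Gclm-led cells also held Cd9, Cd63 and Cd68, so such pairs cannot rise much above 1. In RA, Lgals3 and Cd63 were seen together less often than the shares give (0.51, 0.44 to 0.69), and at 1.05 (0.91 to 1.25) within clusters, and most RA Lgals3 UMIs lay in monocyte-like cells, where Cd63 was scarce. In OIR the same pair was at 0.91 (0.88 to 0.94) and at 1.01 (0.98 to 1.03) within clusters.

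Among OIR homeostatic microglia-like cells at equal depth, the 23 cells with an Spp1 UMI held 0.652 Lgals3 UMIs per cell and the 305 without held 0.128, a log2 ratio of 2.35 (1.39 to 3.24). Cd9 (0.64, 0.37 to 0.90), Cd63 (0.66, 0.30 to 1.01) and Cd68 (0.64, 0.16 to 1.08) were also higher in the cells with Spp1. For Cst7 the ratio of these cells over the rest was 0.79, with an interval across 0 (-0.73 to 2.02). The homeostatic marker list was at 38.2 UMIs per cell in them and 45 in the rest (-0.24, -0.34 to -0.14), and the macrophage and monocyte lists were at 0.783 and 0.570 and at 0.0870 and 0.0721. Before thinning these cells had median depths of 11991 and 8710 UMIs. In OIR monocyte-like cells the 12 cells with Spp1 held 9.25 Lgals3 UMIs per cell and the 75 without 3.80 (1.28, 0.95 to 1.60), 8 Gpnmb UMIs in all against 0, and 2.33 against 1.19 UMIs of the macrophage list (0.98, 0.31 to 1.60). The dividing list was at 1.17 against 0.227 UMIs per cell (2.36, 1.23 to 3.47) and the monocyte list was lower (-0.39, -0.68 to -0.11), with median depths of 13786 and 7443 UMIs before thinning. The monocyte-like contrast leaned on few cells, since the 8 Gpnmb UMIs lay in 3 cells. Before thinning, the monocyte-like cell with the most Lgals3 held 230 UMIs of it and 114 of Spp1. The cell with 2112 Spp1 UMIs held 151 of Lgals3. The intervals do not cover this spread between cells, and the contrast was not run without these cells. The part of these lists and of depth was not tested.

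Counted per cell, more members were seen at once in OIR. At least 4 of the 7 were found in 32 of 930 RA myeloid cells (3.44%, 2.37% to 4.82%) and in 217 of 800 OIR myeloid cells (27.1%, 24.1% to 30.3%), all at 2000 UMIs. Cells with fewer UMIs were left out here and in the other shares and pairs at this depth. In OIR these were 51 of 130 Cryba4-led, 19 of 61 Gclm-led and 22 of 113 dividing-like cells. They were 17 of 140 macrophage-like, 5 of 92 monocyte-like and 14 of 342 homeostatic microglia-like cells. By class the OIR share was 88.1% of Gclm-led, 44.3% of Cryba4-led, 24.1% of monocyte-like, 22.0% of dividing-like, 15.9% of homeostatic microglia-like and 15.4% of macrophage-like cells. In RA it was 50% of Gclm-led (3 of 6, 11.8% to 88.2%), 15.4% of dividing-like (2 of 13), 10.3% of Cryba4-led (4 of 39), 6.98% of macrophage-like, 5.88% of monocyte-like and 1.42% of homeostatic microglia-like cells. The intervals of the libraries overlapped for Gclm-led, dividing-like, macrophage-like and monocyte-like cells. At least 2 of the rarer Spp1, Gpnmb, Lgals3 and Cst7 were in 0.538% of RA and 13.1% of OIR myeloid cells. All of Cd9, Cd63 and Cd68 were in 28.5% and 49.5%. The Gclm-led cells thus had the highest share among these classes of OIR, with an interval of 74.4% to 96.0%.

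**Figure D5:**
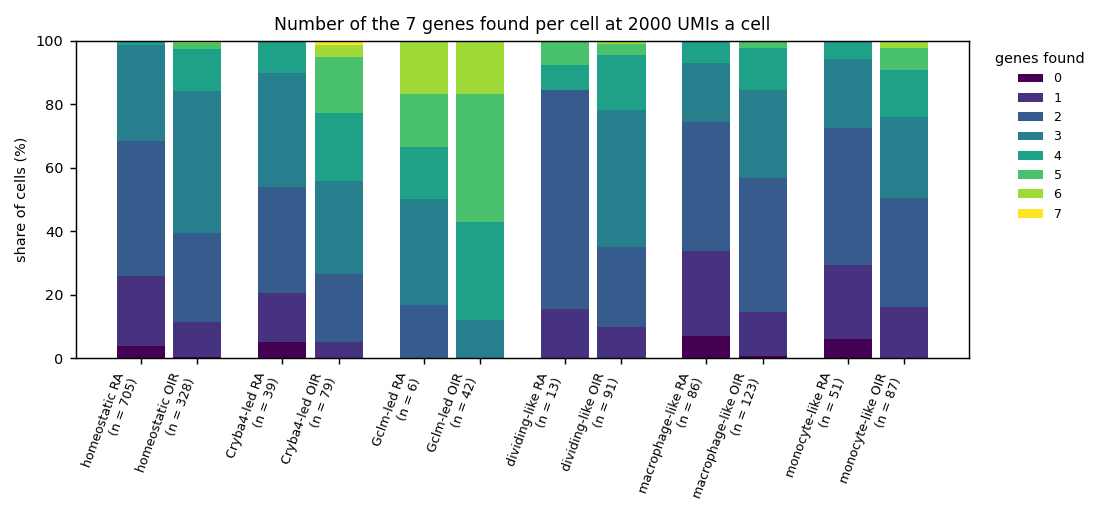
Share of cells (%) by the number of the 7 genes found at 2000 UMIs a cell, by class and library, with the number of cells under each bar. At least 4 genes are found in 88.1% of OIR Gclm-led cells, against 15.9% of OIR and 1.42% of RA homeostatic microglia-like cells.

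Genes that act with the members were compared by fixed lists, counted as higher or lower past 2-fold. The lists, like the members, were chosen with earlier results of these data known, so their counts are a description and support nothing further. Of the DAM list that depends on the receptor Trem2 (stage 2), 7 of 16 genes compared were higher in OIR homeostatic microglia-like cells and 0 lower, with a median ratio of 0.86 against 0.07 over all genes, where 3.90% of genes were higher. The count was 4 when centred on the median of all genes and 4 with totals without ribosomal protein and mitochondrial genes. The 7 genes of the main count were Fabp5 (2.27), a fatty acid binding protein, Igf1 (1.90), a growth factor, Lpl (1.85), the lipase of lipoproteins, Lilrb4a (1.55), Gusb (1.05), Csf1 (1.03) and Axl (1.01). Trem2 itself was at 1675 CPM in RA and 2220 CPM in OIR (0.41, 0.36 to 0.45). Of the list that does not depend on Trem2 (stage 1), 3 of 10 were higher. These were the lysosomal protease Ctsd (1.09), the ferritin chain Fth1 (1.06) and Lyz2, whose levels are given above. Ctsd and Fth1 lay just past 2-fold. Lyz2 was also far higher in OIR in macrophage-like, monocyte-like and rod-like cells, so its difference was not particular to microglia. Apoe, of the same list, was at 20995 CPM in RA and 20149 CPM in OIR. In monocyte-like cells 10 of 15 stage 2 genes were higher, where 6.55% of all genes were, with Fabp5 at 2.69 and Lpl at 2.04, and 1, Cd52, was lower (-1.67). The marker lists of this class also differed between the libraries, as given above, and their part was not tested. In macrophage-like cells 2 of 16 (Lpl and Fabp5) were higher and 1 (Cd52) lower, where 7.88% of all genes were higher and 6.25% lower.

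Genes that act with single members were compared in short lists, for which a count of 0 does not set them apart from all genes (3.90% higher and 5.25% lower in homeostatic microglia-like cells). Of the receptors of osteopontin, 0 of 4 compared differed by 2-fold in homeostatic microglia-like cells, and Cd44, below the 50 CPM limit there, was at 15.3 CPM in RA and 34.4 CPM in OIR. In monocyte-like cells 0 of 5 did, with Cd44 at 623 CPM in RA and 484 CPM in OIR. Among proteases and relatives of cystatin F, 0 of 5 differed by 2-fold in homeostatic microglia-like cells, and Ctsl was at 2103 CPM in RA and 3610 CPM in OIR. In the same cells 0 of 3 other galectins, 0 of 7 other tetraspanins, 0 of 4 genes of dectin-1 signalling and 0 of 4 lysosomal membrane and MiT genes passed 2-fold. In monocyte-like cells Ctsl and Ctsh were higher and Stfa1 lower among 6 relatives of cystatin F, and Cd81 was higher among 5 tetraspanins. Over all genes of monocyte-like cells, 6.55% were higher and 7.61% lower. In OIR Gclm-led over homeostatic microglia-like cells, 3 of 16 stage 2 genes were higher (Fabp5 at 4.19, Igf1 at 3.66 and Lpl at 2.02) and 5 lower, among them Csf1 (-2.06) and Axl (-1.31), where 11.5% of all genes were higher and 36.3% lower. Itgav, Itgb5 and Itga5 of 4 osteopontin receptors were lower there, where 36.3% of all genes were.

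The genes most like the members in pattern were ranked by Pearson correlation of log2(CPM + 10) over 18 groups of a myeloid cluster and a library, among 5592 genes. These groups share libraries and depth, so the values are a description. For Spp1 they were Ftl1-ps1 (0.90), a copy of the ferritin light chain gene whose reads can come from its parent, Fam162a (0.89) and Stx4a (0.88). For Lgals3 they were Anxa2 (0.93), Tmed10 (0.92) and Adssl1 (0.91), and for Cst7 Glrx5, Bsg and Mpc1 (0.90 each). For Gpnmb they were Fam26f (0.79), Clec4d (0.76) and Cybb (0.74). Among the members themselves, Cd63 and Cd68 were most alike (0.84), Spp1 was at 0.81 with Cd68 and 0.78 with Lgals3, and Gpnmb and Cd9 were least alike (-0.41).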

How the data were processed

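CD11b+ F4/80+ cells of 1 pooled RA and 1 pooled OIR library were counted. The deposited files hold raw UMI counts per gene and barcode, and per the file headers Cell Ranger 3.1.0 wrote them. The submitters' processing notes name mm10 and Seurat 4.0, and the filters on barcodes before deposit are not given in the sources used here. No columns were left unused.

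Cells above 20% mitochondrial UMIs and the 2% with the most genes in each library were removed. The rest were integrated in Seurat 5.3.0 with R 4.3.3 (30 dimensions, 20 neighbours, seed 1), on 2963 of 3000 anchor genes after the members and the listed genes were left out. Clusters were called at resolution 0.5 over all cells and 0.8 over the myeloid ones, taken as clusters with Ptprc in at least 10% of cells. Names came from 15 marker lists, with a pseudocount of 5 CPM. Scrublet in scanpy 1.11.5 called 6 doublets, too few for the caller to have worked, and these cells were kept. Red blood cells were kept apart. Of the 13 myeloid clusters, 1 is not reported here on its own and counts only among all myeloid cells.

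UMIs were summed by class and library with Python 3.11.15, numpy 2.4.6, pandas 2.3.3 and scipy 1.17.1, and drawn with matplotlib 3.10.9. With 1 library per condition no test was run. A ratio against 0 UMIs is a lower bound, at a floor of 3 UMIs in the class. Genes at 50 CPM or more on either side were compared, and 2-fold was counted. Shares and pairs were taken at 2000 UMIs per cell over 1 draw, with 10 draws for pairs. The marker lists are fixed sets, and the 8 gene lists hold 66 genes. Named genes were the members, list genes past 2-fold and the 3 genes most like each rarer member. Lyz2 and Malat1 were named after their values were seen. The members and lists were chosen with earlier results of these data known. The thinning, the intervals and the counts were tested on simulated data.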

Additional observations from a re-analysis of the deposited data

Results flagged for a closer look

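The Gpnmb ratio of OIR over RA was -3.74 in Gclm-led and -0.57 in macrophage-like cells (0.25 without the filter on gene number), while in homeostatic microglia-like cells it was 3.09 from 7 against 2 UMIs. These classes were picked out since their counting intervals lay on opposite sides of 0, and the difference between them was not tested. Gclm-led cells held the macrophage list at 2171 CPM in RA and 247 CPM in OIR, and the part of this was not tested. The Lgals3 ratio was -0.75 in dividing-like cells and above 0 in the 4 other classes with an interval. That value rested on 1 RA cell with 54 of 59 UMIs, and the difference was not tested. Cd63 was higher in OIR outside the myeloid cells that the comparisons are about, by 2.11 in rod-like cells and 1.5 in endothelial- and pericyte-like cells, above the level of the RA controls. In rod-like cells the homeostatic microglia list was at 441 CPM in RA and 195 CPM in OIR, and the macrophage list at 13.7 and 222 CPM, and the part of these transcripts in the Cd63 value was not tested.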

How the results depend on the processing

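Ratios of OIR over RA were rerun for homeostatic microglia-like, dividing-like, macrophage-like, monocyte-like and all myeloid cells. The Spp1 ratio kept its direction in each of these in every alternative, and 17 of 509 such ratios over all members had the other sign. The ratios of OIR over RA in Gclm-led, Cryba4-led and Ifit2-led cells were not rerun. Main values were rerun in more than 1 alternative each, and the reruns are counted here. In 139 reruns the value stayed within the limits of the main value, or for a count within 1.5 times of it. In 33 it moved, in 1 it turned its sign and in 3 a count of genes changed by more than 1.5 times. The cause was not tested. The median ratio of the members in homeostatic microglia-like cells, 2.18, was 1.08 with a 25% Ptprc limit, 1.13 with a 10% mitochondrial limit, 1.11 without the filter on gene number and 1.66 when cells were thinned before summing. In dividing-like cells, 0.50 became 0.94 without integration, 1.19 with the 10% limit and 0.83 without the cell richest in each member. In macrophage-like cells 0.92 became 1.06 for cells of at least 2000 UMIs, 0.76 when centred on the median of all genes and 0.68 when thinned first, and in monocyte-like cells 1.0 became 0.76 with the 25% limit and 2.09 without the richest cells. Within OIR, the median of Cryba4-led over homeostatic microglia-like cells, 1.44, was 0.42 with the members among the anchors, 0.36 with 20 dimensions, 0.33 without integration, 0.40 with the 10% limit, 0.23 without the filter on gene number, -0.02 for cells of at least 2000 UMIs and 0.82 for cells with a Ptprc UMI. With the 25% Ptprc limit no Cryba4-led cluster was left among the myeloid cells, so there is no value.

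Spp1 in Cryba4-led cells turned to -0.47, -0.25, -0.50, -0.18 and -2.0 with the members among the anchors, 20 dimensions, no integration, no filter on gene number and cells of at least 2000 UMIs. In the last setting Gpnmb and Lgals3 were at -0.02 and -0.22 there, and Lgals3 was at -0.11 without the filter. Lgals3 in dividing-like cells turned to 1.89 with 20 dimensions, 2.16 (a lower bound) without integration, 0.05 with the 25% and 0.09 with the 10% limit, 2.39 without the filter, 2.90 for cells of at least 2000 UMIs and 2.34 without the richest cells. Cd63 and Cd68 in dividing-like cells turned to -0.27 and -0.18 with 20 dimensions, and Gpnmb in macrophage-like cells to 0.25 without the filter. Of the DAM lists in homeostatic microglia-like cells, 3 stage 1 genes became 6 at 1.5-fold, and 7 stage 2 genes became 4 with totals without ribosomal and mitochondrial genes and 4 when centred on the median. The share of cells with at least 4 members was 22.2% in OIR with the 25% limit, 1.15% in RA and 13.5% in OIR at 1000 UMIs, and 8.55% and 42.7% at 4000 UMIs. The Spp1 share was 0.734% and 10.1% at 1000 UMIs, 17.4% in OIR at 4000 UMIs, and 3.41% and 23.3% unthinned. The Lgals3 share was 4.93% and 24.0% at 1000 UMIs, 34.5% in OIR at 4000 UMIs, and 8.88% and 40.7% unthinned.

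Leaving out the richest cell and the 10 draws were chosen after seeing the data. No paired analysis was possible because each condition has 1 library, and no library was left out for the same reason. Mice within a pool cannot be told apart, and neither can library and condition. In the RA library of myeloid cells 0 UMIs allow up to 0.299 CPM.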

Other observations

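The cells richest in Gpnmb are described singly. The OIR cell with the most Gpnmb was monocyte-like and held 19 UMIs of Gpnmb, 114 of Spp1 and 230 of Lgals3, and it was also the OIR cell with the most Lgals3. The OIR cell with the next most Gpnmb (18 UMIs) was the monocyte-like cell with 2112 Spp1 UMIs. In RA, the cell with the most Gpnmb (46 UMIs) was monocyte-like with 0 UMIs of Spp1 and 11 of Lgals3, and it held 124 UMIs of the macrophage list beside 117 of the monocyte list. The RA cell with the next most Gpnmb (23 UMIs) was Gclm-led and held 38 UMIs of Lgals3 and 0 of Spp1. It also held 81 UMIs of the macrophage list beside 38 of the homeostatic microglia list.

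Lyz2 was at 4.98 CPM (50 UMIs) over all RA myeloid cells and at 1535 CPM (12013 UMIs) over those of OIR, a log2 ratio of 8.27 (7.87 to 8.70). No Lyz2 UMI was found in RA Cryba4-led, Gclm-led or dividing-like cells, and rod-like cells held 0 in RA and 74 in OIR. Spp1 had 219 and 5566 UMIs over the same myeloid cells. Lyz2 was singled out after its values were seen.

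Within the homeostatic microglia-like class, Spp1 and Lgals3 were higher in OIR in both larger clusters. In the cluster led by Egr3, Spp1 was at 3.32 CPM in RA and 89.6 CPM in OIR (4.75, 3.97 to 5.65), and in the cluster led by Rrad and Ddit3 at 5.16 and 301 CPM (5.87, 5.12 to 6.72), where 130 of the 283 OIR UMIs lay in 1 cell. Lgals3 was at 0.95 and 79.0 CPM in the first and at 3.44 and 145 CPM in the other. In the smallest cluster of this class (26 RA and 11 OIR cells, median 2861 UMIs), Spp1, Gpnmb and Lgals3 had 0 UMIs in both libraries, which allows up to 37.1 CPM in RA and 203 CPM in OIR, above the OIR levels of the whole class.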
